A study of Mus musculus with 6 samples.

Results

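The genes of the eukaryotic translation initiation factors (eIFs), of the kinases that phosphorylate eIF2 and of the proteins that bind eIF4E were followed in cultured aortic endothelial cells of mice that had received angiotensin II (AngII). They were all rows of the count table whose symbol begins with Eif and a digit from 1 to 6 and that had at least 1 count in at least 3 of the 6 samples. Of 72 rows with such a symbol 68 met this rule, among 17067 rows in the table. Wild-type C57BL/6 mice of 8 weeks carried osmotic pumps under the skin for 14 days, and the pumps gave AngII, at a dose of 1000 ng per minute and kg of weight (3 samples), or saline (3 samples). Genotype, surgery and culture were the same in both groups. Aortas were then cut into 2 mm pieces and laid on Matrigel, in a medium that held heparin, endothelial growth factor and 20% fetal calf serum. Outgrowth of endothelial cells took place between days 5 and 7, so the cells had spent time outside the animal before RNA was taken. The labels do not say whether each sample came from its own mouse or culture. The p-values therefore measure only how these samples vary, and that variation may be technical.

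Initiation brings the initiator tRNA, the small ribosomal subunit and the start codon of a messenger RNA together. eIF2 carries the initiator tRNA as a complex with GTP, eIF2B recharges eIF2 with GTP, and stress kinases phosphorylate eIF2 and thereby turn it into an inhibitor of eIF2B. This lowers translation in general and raises translation of ATF4, a transcription factor of the integrated stress response. eIF4F (the cap-binding eIF4E, the scaffold eIF4G and the helicase eIF4A) prepares the messenger RNA, the 4E-binding proteins withhold eIF4E until mTORC1 phosphorylates them, eIF3 holds the small subunit, eIF1, eIF1A and eIF5 govern start codon selection, and eIF5B joins the large subunit. Only messenger RNA was measured, so neither protein levels nor phosphorylation are known here.

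The initiation genes moved in both directions and mostly by small amounts. After a filter on low counts 53 of the 68 genes were tested, and 26 were higher and 13 lower with AngII, while 14 did not pass (edgeR quasi-likelihood test, adjusted p below 0.05). Together 73.6% passed in either direction, where 57.6% of all tested genes did. Of the tested initiation genes 49.1% were higher, where 29.0% of all 12277 tested genes were, and 24.5% were lower, where 28.6% of all were. The median log2 fold change was 0.10 for the initiation genes and 0.00 for all tested genes, and the median absolute log2 fold change was 0.17 and 0.19. The AngII samples lay wholly above the saline samples in 27 of the tested initiation genes (31.3% of all tested genes) and wholly below in 13 (31.4% of all), so that 75.5% did not overlap, where 62.7% of all tested genes did not. All these are levels per total messenger RNA of a bulk culture, in which a change in the mix of cells and a change per cell cannot be told apart. When a change had to exceed 1.2-fold to be called, 6 of the 53 tested initiation genes were higher and 2 were lower. Of all 12277 tested genes 9.03% were higher and 9.51% lower by that test. The 6 were Eif5b, Eif2s2, Eif2b3, Eif3c, Eif4e and Eif3d, and the 2 were Eif3f and Eif4ebp3. Removing the first of the 3 saline samples ended the call for Eif4ebp3 (adjusted p = 0.0503).

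**Figure D1:**
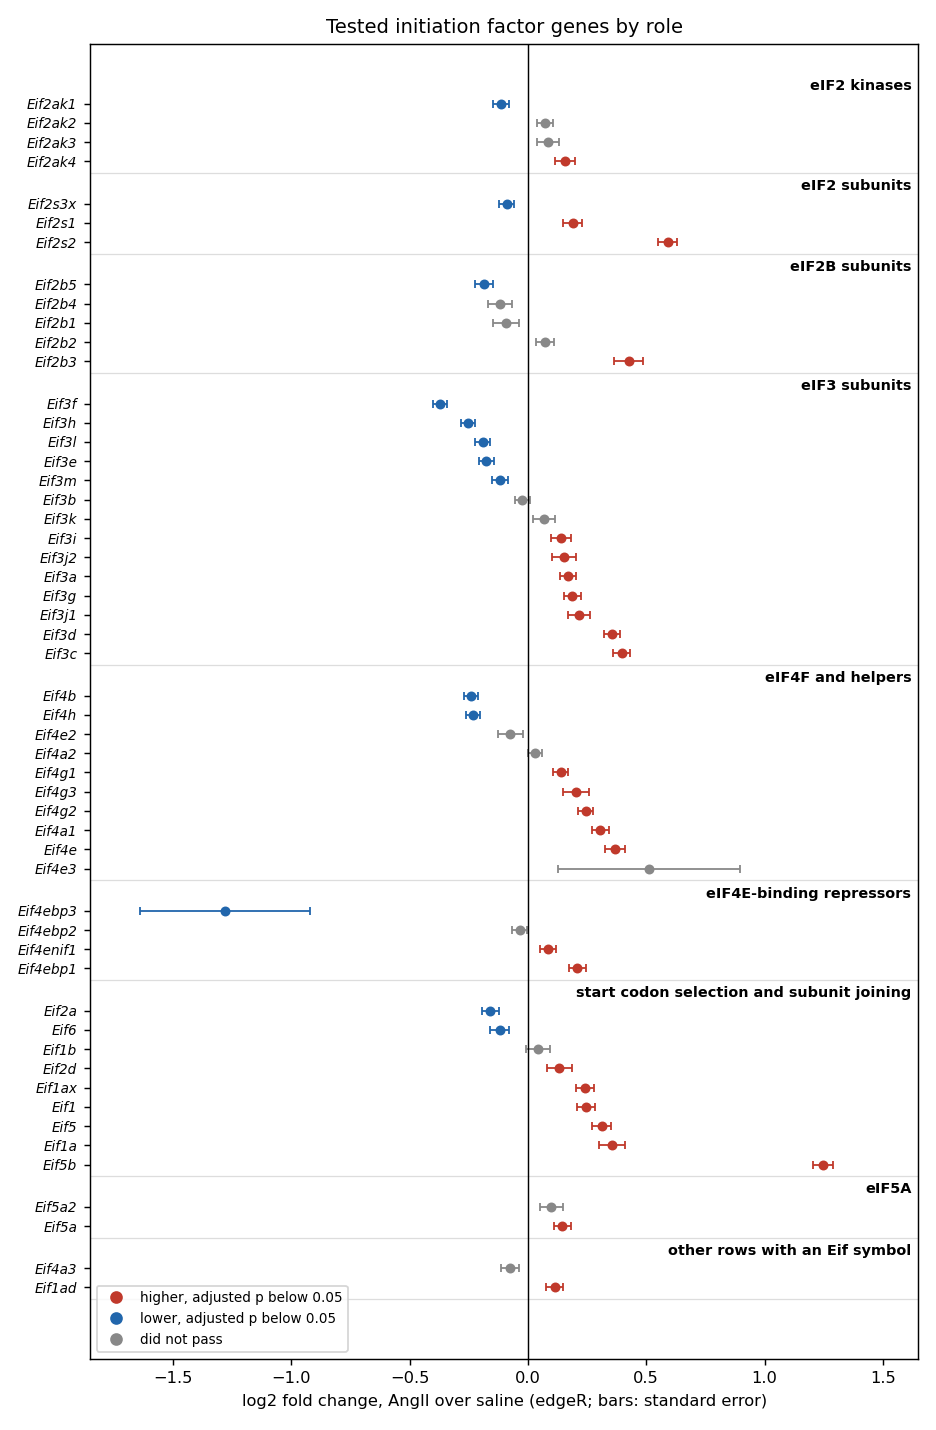
Log2 fold change of AngII over saline (horizontal axis, edgeR, bars are standard errors) for the 53 tested initiation genes, grouped by role, with 3 samples a group. Eif5b stands at 1.25 and Eif4ebp3, which rests on few counts, at -1.28, and of the genes that passed Eif2s2 (0.59) comes next.

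Eif5b encodes the GTPase that joins the large ribosomal subunit at the start codon, and it had the largest rise. Its levels were 58.1, 59.9 and 59.0 CPM (counts scaled to library size, with TMM normalisation) in the saline samples and 132, 139 and 149 CPM in the AngII samples. Every AngII sample was more than double every saline sample, and the groups were far apart. The gene (ENSMUSG00000026083, chromosome 1, 37998010 to 38055579, plus strand, GRCm38) rose 2.37-fold (log2 fold change 1.25 ± 0.0417 SE, n = 3; edgeR adjusted p = 4.04e-14). Its exons share 1240 of 7797 bases with those of Rev1 on the other strand, and Rev1, a DNA polymerase gene, fell by 0.44 on the log2 scale (adjusted p = 1.58e-07).

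Promoters of 4 genes are shown. Eif5b and Eif2s2 had the largest rises, and Eif3f had the largest fall among well-expressed genes. Eif2s3x is not at an end of the pattern. It fell by only 0.09 on the log2 scale, and it is shown because its partners in eIF2 rose. Each is 300 bases of RefSeq on GRCm38.p6, read 5′ to 3′ on the gene's strand, with 250 bases before the annotated start. The windows are chr1:37997760-37998059 (plus strand), chr2:154892857-154893156 (minus), chr7:108934165-108934464 (plus) and chrX:94212602-94212901 (minus). Capitals mark the stretch of C and T that opens with C at the annotated start and runs onward, a CACGTG hexamer, and a match to TGATGNAA read on the other strand.
Eif5b: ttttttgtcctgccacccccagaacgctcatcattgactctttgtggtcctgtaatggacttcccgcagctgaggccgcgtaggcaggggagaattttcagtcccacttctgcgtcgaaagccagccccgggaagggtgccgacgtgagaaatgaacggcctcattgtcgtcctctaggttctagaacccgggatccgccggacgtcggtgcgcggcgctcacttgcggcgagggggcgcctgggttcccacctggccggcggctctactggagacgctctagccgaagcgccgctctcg
Eif2s2: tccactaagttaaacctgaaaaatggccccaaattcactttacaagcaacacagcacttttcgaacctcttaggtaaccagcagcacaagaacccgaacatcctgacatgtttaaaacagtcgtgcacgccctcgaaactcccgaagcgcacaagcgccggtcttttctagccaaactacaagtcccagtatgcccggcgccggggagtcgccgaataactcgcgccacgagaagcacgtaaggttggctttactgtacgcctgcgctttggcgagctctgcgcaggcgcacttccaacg
Eif3f: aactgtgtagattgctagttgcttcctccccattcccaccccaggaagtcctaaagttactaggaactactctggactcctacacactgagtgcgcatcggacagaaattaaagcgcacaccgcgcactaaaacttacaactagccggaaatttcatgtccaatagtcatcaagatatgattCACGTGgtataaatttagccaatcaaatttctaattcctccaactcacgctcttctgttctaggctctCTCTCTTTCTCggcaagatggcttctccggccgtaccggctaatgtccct
Eif2s3x: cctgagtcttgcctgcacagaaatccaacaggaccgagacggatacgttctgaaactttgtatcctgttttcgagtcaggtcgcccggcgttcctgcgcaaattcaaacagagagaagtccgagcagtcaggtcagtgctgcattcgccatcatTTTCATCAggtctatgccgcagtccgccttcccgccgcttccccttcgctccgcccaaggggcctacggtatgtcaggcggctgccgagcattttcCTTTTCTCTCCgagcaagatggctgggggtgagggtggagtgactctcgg

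In Eif3f and Eif2s3x the annotated start was a C, and from it on 11 bases were all C or T. C or T also stood in the 4 bases directly before the start in Eif3f and the 5 before it in Eif2s3x, so the annotated start lies inside a longer run. Neither Eif5b nor Eif2s2 had a C followed by at least 4 bases of C or T within 5 bases of the start, although 5 bases of C or T also stood directly before the start in Eif5b. Messenger RNAs that begin this way are known as 5′ terminal oligopyrimidine (TOP) messages, and many of the translation machinery's genes belong to them. The table of promoters held 42 of the 53 tested genes. A C followed by at least 4 bases of C or T, starting within 5 bases of an annotated start on the gene's strand, was found in 5 of 9 lower genes (Eif2ak1, Eif2s3x, Eif2b5, Eif3f and Eif3l), in 4 of 20 higher genes and in 3 of 13 that did not pass. It was found in 23.8% of all tested genes with a promoter and in 18.3% of all promoters. CACGTG, a hexamer bound by MYC and related factors, was present in 5 of 20 higher genes (Eif3a, Eif4a1, Eif4e, Eif4g1 and Eif5a), 2 of 9 lower genes and 3 of 13 others, against 11.6% of tested genes and 7.15% of all promoters (it reads the same on both strands). TGATGNAA, the composite element read by ATF4 with C/EBP proteins, was found on either strand in 0 of 20 higher genes and in 1 of 9 lower genes (Eif2s3x), against 2.83% of tested genes and 3.97% of all promoters. The endoplasmic reticulum stress element, CCAAT and CCACG with 9 bases of any kind between them on either strand, matched 0 of the 42, against 0.147% of tested genes and 0.119% of all promoters. No motif overlapped another in the promoters shown.

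The eIF2 kinases each sense a different stress, and they did not move together. Eif2ak4, the kinase GCN2 that senses uncharged tRNA, had 52.6, 48.7 and 49.9 CPM with saline and 55.9, 55.2 and 57.4 CPM with AngII. The groups did not overlap, and it was 1.12-fold higher (log2 fold change 0.16 ± 0.0415 SE; edgeR adjusted p = 0.00334). Eif2ak1, the kinase HRI that responds to heme shortage and to signals from mitochondria, had 90.7, 91.3 and 94.3 CPM with saline and 86.8, 85.4 and 83.2 CPM with AngII. It was 1.08-fold lower (log2 fold change -0.11 ± 0.0349; adjusted p = 0.00915), and 487 of its 4325 exon bases are shared with Aimp2 on the other strand, which rose by 0.24. Eif2ak3, the kinase PERK of the endoplasmic reticulum, did not pass. It had 45.1, 45.5 and 49.8 CPM with saline and 47.8, 50.1 and 51.0 CPM with AngII, groups that overlapped (log2 fold change 0.08 ± 0.0466; adjusted p = 0.133). Without saline replicate 3 Eif2ak3 passed (0.13, adjusted p = 0.0274). Eif2ak2, the kinase PKR that binds double-stranded RNA and is itself induced by interferon, was the most abundant per length of the kinases at 66.6 ± 2.16 CPM per kb of exon with saline. Its 296, 289 and 277 CPM with saline and 292, 304 and 311 CPM with AngII overlapped (log2 fold change 0.07 ± 0.0336; adjusted p = 0.0719). Its call changed with the settings, since it passed without the count filter and without the first AngII sample.

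The 3 measured subunits of eIF2 went apart. Eif2s2, the beta subunit that contacts eIF2B and eIF5, had 243, 252 and 253 CPM with saline and 345, 385 and 396 CPM with AngII. It was 1.51-fold higher without overlap (log2 fold change 0.59 ± 0.0412; edgeR adjusted p = 7.94e-10; ENSMUSG00000074656, chromosome 2, 154871410 to 154892935, minus strand). Eif2s1, the alpha subunit that the kinases phosphorylate, had 153, 153 and 158 CPM with saline and 164, 179 and 185 CPM with AngII, and was 1.14-fold higher (log2 fold change 0.19 ± 0.0394; adjusted p = 4.58e-04). Eif2s3x, the X-linked gamma subunit that binds the initiator tRNA, had 460, 471 and 467 CPM with saline and 429, 435 and 450 CPM with AngII. It fell by 0.09 on the log2 scale (SE 0.0307; adjusted p = 0.0176), a call lost without the second saline sample (adjusted p = 0.0703) or the second AngII sample (0.0732). Per kb of exon, the level of Eif2s2 over that of Eif2s1 was 2.13, 2.21 and 2.15 with saline and 2.82, 2.87 and 2.86 with AngII. The level of Eif2s3x over that of Eif2s1 was 2.77 ± 0.0542 with saline and 2.28 ± 0.0988 with AngII (mean ± SD, n = 3). The Y-linked copy of the gamma subunit was not analysed here.

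Of all tested genes 29.0% rose and 28.6% fell, and of the 5 subunits of eIF2B 1 rose, 1 fell and 3 did not pass. Eif2b3, the gamma subunit of its catalytic part, had 22.4, 20.1 and 21.2 CPM with saline and 26.5, 29.7 and 29.3 CPM with AngII, and was 1.34-fold higher without overlap (log2 fold change 0.43 ± 0.0622; edgeR adjusted p = 1.11e-05). Eif2b5, the epsilon subunit that catalyses the exchange, had 70.1, 74.3 and 76.6 CPM with saline and 65.3, 65.6 and 63.7 CPM with AngII, and was 1.14-fold lower (log2 fold change -0.19 ± 0.0392; adjusted p = 5.33e-04). The catalytic partners thus went opposite ways. Among the regulatory subunits Eif2b1 had a log2 fold change of -0.09 (adjusted p = 0.153), Eif2b2 of 0.07 (0.112) and Eif2b4 of -0.12 (0.0514). The groups lay apart in Eif2b2 and in Eif2b4, and Eif2b4 passed under 6 of the 15 alternatives. Eif2b2 passed with GC content and length trends removed (0.16, adjusted p = 0.00105).

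eIF3 is the largest initiation factor. Of its 14 gene rows 7 rose, 5 fell and 2 did not pass, where 29.0% of all tested genes rose and 28.6% fell. The median log2 fold change of these rows was 0.10. The 5 that fell, Eif3e, Eif3f, Eif3h, Eif3l and Eif3m, all encode parts of the core of the complex that is built from PCI and MPN domains. In that same core Eif3a, its largest subunit, rose by 0.17 and Eif3c by 0.40, and Eif3k did not pass (0.07, adjusted p = 0.213), though it did with GC content and length trends removed (0.12, 0.036). Eif3f, an MPN subunit, had 290, 282 and 298 CPM with saline and 223, 226 and 224 CPM with AngII. The AngII samples lay close together and well below the saline samples, and the gene was 1.29-fold lower (log2 fold change -0.37 ± 0.0308; edgeR adjusted p = 8.22e-09). Eif3h, the other MPN subunit, had 299, 296 and 302 CPM with saline and 252, 252 and 249 CPM with AngII (log2 fold change -0.25 ± 0.0291; adjusted p = 6.42e-07). The PCI subunits Eif3l (-0.19), Eif3e (-0.18) and Eif3m (-0.12) fell less.

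Eif3c had 767, 788 and 800 CPM with saline and 982, 1033 and 1083 CPM with AngII, and was 1.32-fold higher (log2 fold change 0.40 ± 0.0365; edgeR adjusted p = 3.38e-08). Eif3d, the subunit that can itself bind the cap of some messages, had 145, 154 and 150 CPM with saline and 185, 197 and 194 CPM with AngII (log2 fold change 0.36 ± 0.0347; adjusted p = 6.91e-08). An antisense transcript, Gm17638, covers 32.9% of the exon bases of Eif3d. Eif3g (0.19) and Eif3i (0.14), of the peripheral module near the entry of the messenger RNA channel, rose, while Eif3b, the scaffold of that module, did not pass (-0.02, adjusted p = 0.542). Eif3j1 (0.22) and Eif3j2 (0.15), near-identical copies of the loosely bound j subunit, rose, but reads that they share may have been divided between them. The groups overlapped in Eif3j2. The exons of Eif3j1 share 1107 of 5413 bases with Spg11 on the other strand, which rose by 0.15 (edgeR adjusted p = 0.0073). The Eif3i call was lost without the first saline sample (adjusted p = 0.0536) or the third AngII sample (0.0596), and the Eif3j2 call without the second saline (0.116), the second AngII (0.109) or the third AngII sample (0.0536). Per kb of exon, Eif3c stood at 2.01 ± 0.0557 times the level of Eif3f with saline and at 3.42 ± 0.167 times with AngII (mean ± SD, n = 3). Eif3c and Eif3f had the highest and the lowest log2 fold change of the eIF3 rows, so their ratio was bound to differ.

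**Figure D2:**
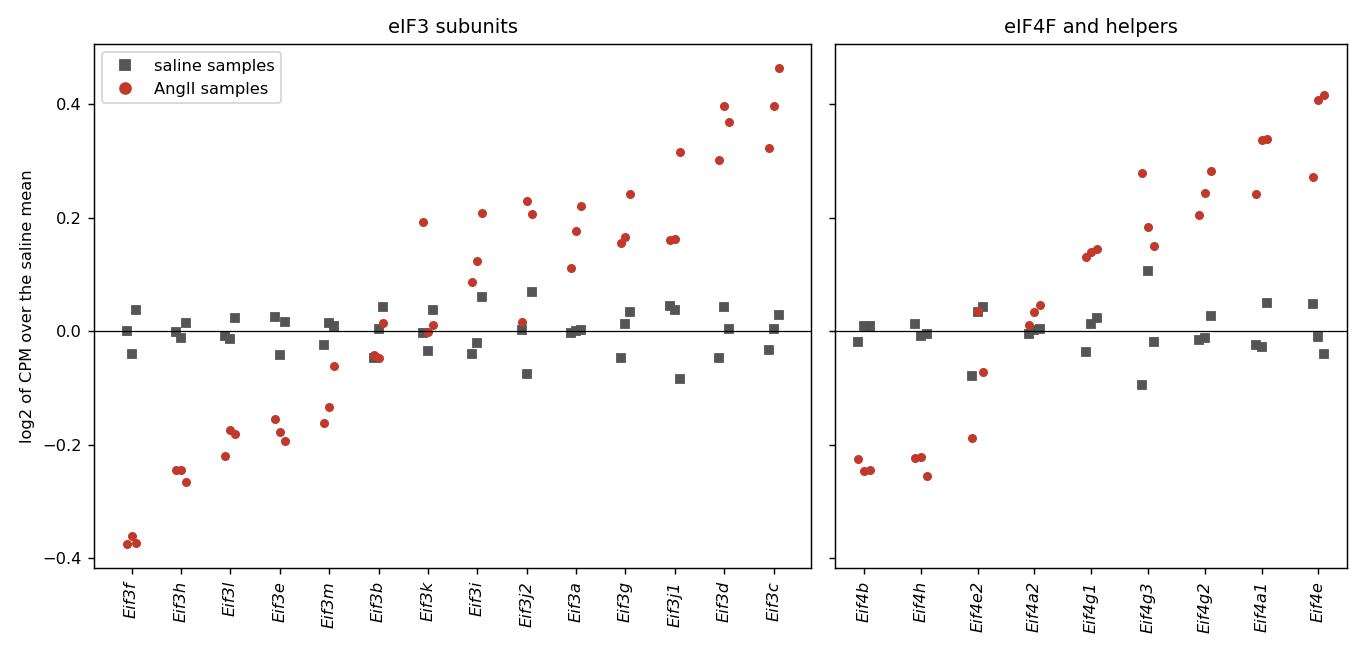
Log2 of each sample's CPM over the saline mean of the same gene (vertical axis) for the eIF3 rows (left) and for eIF4F and its helpers (right, without Eif4e3), with squares for the 3 saline and circles for the 3 AngII samples, replicates 1 to 3 from left to right. The AngII samples run from below the saline samples at Eif3f and Eif4b to above them at Eif3c and Eif4e.

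In eIF4F the genes of the cap-binding subunit, the main helicase and the scaffolds rose, and the helpers of the helicase fell. Eif4e, which binds the cap, had 83.3, 80.0 and 78.3 CPM with saline and 97.2, 107 and 108 CPM with AngII, and was 1.29-fold higher (log2 fold change 0.37 ± 0.0416; edgeR adjusted p = 4.73e-07). Eif4a1, the main helicase, had 683, 681 and 719 CPM with saline and 821, 877 and 878 CPM with AngII (log2 fold change 0.31 ± 0.0353; adjusted p = 6.00e-07). Neither of them overlapped between the groups. The scaffold genes Eif4g1 (0.14, adjusted p = 7.71e-04) and Eif4g3 (0.20, 0.00338) rose, as did Eif4g2 (0.24, 3.92e-06), a relative that lacks the eIF4E-binding part. Eif4b had 764, 780 and 780 CPM with saline and 663, 653 and 653 CPM with AngII, and Eif4h had 639, 630 and 631 CPM with saline and 542, 543 and 530 CPM with AngII. These RNA-binding cofactors stimulate the helicase, and they were each 1.18-fold lower (log2 fold changes -0.24 ± 0.0300 and -0.23 ± 0.0298; adjusted p = 1.80e-06 and 2.13e-06). The second helicase gene Eif4a2 (0.03, adjusted p = 0.392), the cap-binding relative Eif4e2 (-0.07, 0.253) and the scarce Eif4e3 (0.51 ± 0.383, 0.266) did not pass. Per kb of exon, Eif4a1 made up 79.2% ± 0.467 of the sum of Eif4a1 and Eif4a2 with saline and 82.2% ± 0.401 with AngII (mean ± SD, n = 3). It stood at 2.07 ± 0.0562 times the level of Eif4b with saline and at 3.03 ± 0.139 times with AngII. Eif4a1 had risen and Eif4b had the lowest log2 fold change of eIF4F and its helpers, so that ratio was bound to be higher.

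Among the repressors that bind eIF4E, Eif4ebp1 had 94.3, 91.9 and 97.8 CPM with saline and 107, 110 and 112 CPM with AngII. It is a known target of ATF4, and it was 1.16-fold higher without overlap (log2 fold change 0.21 ± 0.0354; edgeR adjusted p = 5.97e-05). Eif4enif1, the transporter that carries eIF4E to the nucleus and to processing bodies, had 95.0, 96.0 and 97.3 CPM with saline and 99.1, 104 and 103 CPM with AngII (log2 fold change 0.08; adjusted p = 0.0412), a call lost with library totals alone (0.0734), with a filter at 5 CPM (0.0547), in DESeq2 (0.125) and without any 1 of 4 samples. Those samples were the first saline (0.13), the second saline (0.107), the second AngII (0.16) and the third AngII sample (0.0971). Eif4ebp2, the binding protein known for its role in neurons, did not pass (169 ± 3.46 against 165 ± 5.12 CPM; log2 fold change -0.04; adjusted p = 0.377). Eif4ebp3 had 1.41, 0.816 and 0.780 CPM with saline and 0.546, 0.222 and 0.440 CPM with AngII. Its log2 fold change of -1.28 ± 0.359 rests on 4.635 to 30.381 estimated counts a sample (adjusted p = 0.0051), and without the first saline sample it was -0.97 with the call lost. An overlapping gene on the same strand, AC115631.1, covers 67.3% of its exon bases, so the reads cannot be assigned with certainty. The 3 binding proteins together, per kb of exon, stood at 4.79, 4.93 and 5.19 times the level of Eif4e with saline and at 4.42, 4.01 and 4.02 times with AngII. Every AngII sample was below every saline sample, with no test, since 3 samples against 3 cannot give an exact permutation p below 0.10.

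Of all tested genes 29.0% rose and 28.6% fell. The factors of start codon selection and subunit joining rose in 6 of 9 and fell in 2. Their median log2 fold change was 0.24, with Eif5b at the top. Eif5, which makes eIF2 hydrolyse its GTP at the start codon, had 457, 457 and 477 CPM with saline and 537, 578 and 613 CPM with AngII (log2 fold change 0.31 ± 0.0402; edgeR adjusted p = 2.36e-06). Eif1a had 89.2, 90.1 and 96.6 CPM with saline and 104, 123 and 126 CPM with AngII (0.36 ± 0.0546; adjusted p = 1.87e-05), and its close X-linked relative Eif1ax rose by 0.24. Both encode eIF1A, which promotes scanning, and reads they share could have been divided. Eif1, the guardian of the start codon, rose by 0.25 (adjusted p = 3.77e-05), and its relative Eif1b did not pass (0.04, 0.507) unless GC content and length trends were removed (0.12, 0.0358). Eif2d, which delivers tRNA without eIF2 and recycles small subunits, rose by 0.13 (adjusted p = 0.0361). The Eif2d call was lost with library totals alone (0.0564), in DESeq2 (0.122) and without 4 samples singly, the second saline (0.193), the third saline (0.069), the first AngII (0.105) and the second AngII (0.0661). Eif2a, an alternative initiation factor that is no subunit of eIF2, fell by 0.16 (adjusted p = 0.00134). Its exons share 72 of 2299 bases with Serp1 on the other strand, a gene of endoplasmic reticulum stress that rose by 0.93. Eif6, which keeps the large subunit apart, fell by 0.12 (adjusted p = 0.0177), with groups that overlapped. The Eif6 call was lost in DESeq2 (0.0501), with GC content and length trends removed (log2 fold change 0.0032) and without any 1 of 4 samples. Those were the first saline (0.0621), the third saline (0.0969), the first AngII (0.0565) and the second AngII sample (0.06).

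Eif5a, the hypusine-bearing factor that also serves elongation, rose by 0.15 (edgeR adjusted p = 0.00201), and its relative Eif5a2 had a log2 fold change of 0.10 (adjusted p = 0.0782). Eif5a2 passed with the replicate number as a block (0.10, adjusted p = 0.0449) and without saline replicate 2 (0.14, 0.0277). Eif5a2 made up 9.21% ± 0.644 of their sum per kb with saline and 8.94% ± 0.422 with AngII (n = 3), within the spread. Eif4a3, a helicase of the exon junction complex and not of initiation, did not pass (-0.08, adjusted p = 0.0936), but did with library totals alone (-0.09, 0.0488). Eif1ad, which carries an eIF1A-like domain, rose by 0.11 (0.0134), a call lost in DESeq2 (0.0728), without the second saline sample (0.0739) and without the second AngII sample (0.0598). The 15 genes below the count filter were Eif4a3l2 and 14 numbered relatives of Eif1ad, with at most 11.506 estimated counts in any sample. The estimated counts of these 14 relatives, some of them fractions, summed to 57, 43 and 22 in the saline samples and 11, 11 and 31 in the AngII samples, groups that overlapped.

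**Figure D3:**
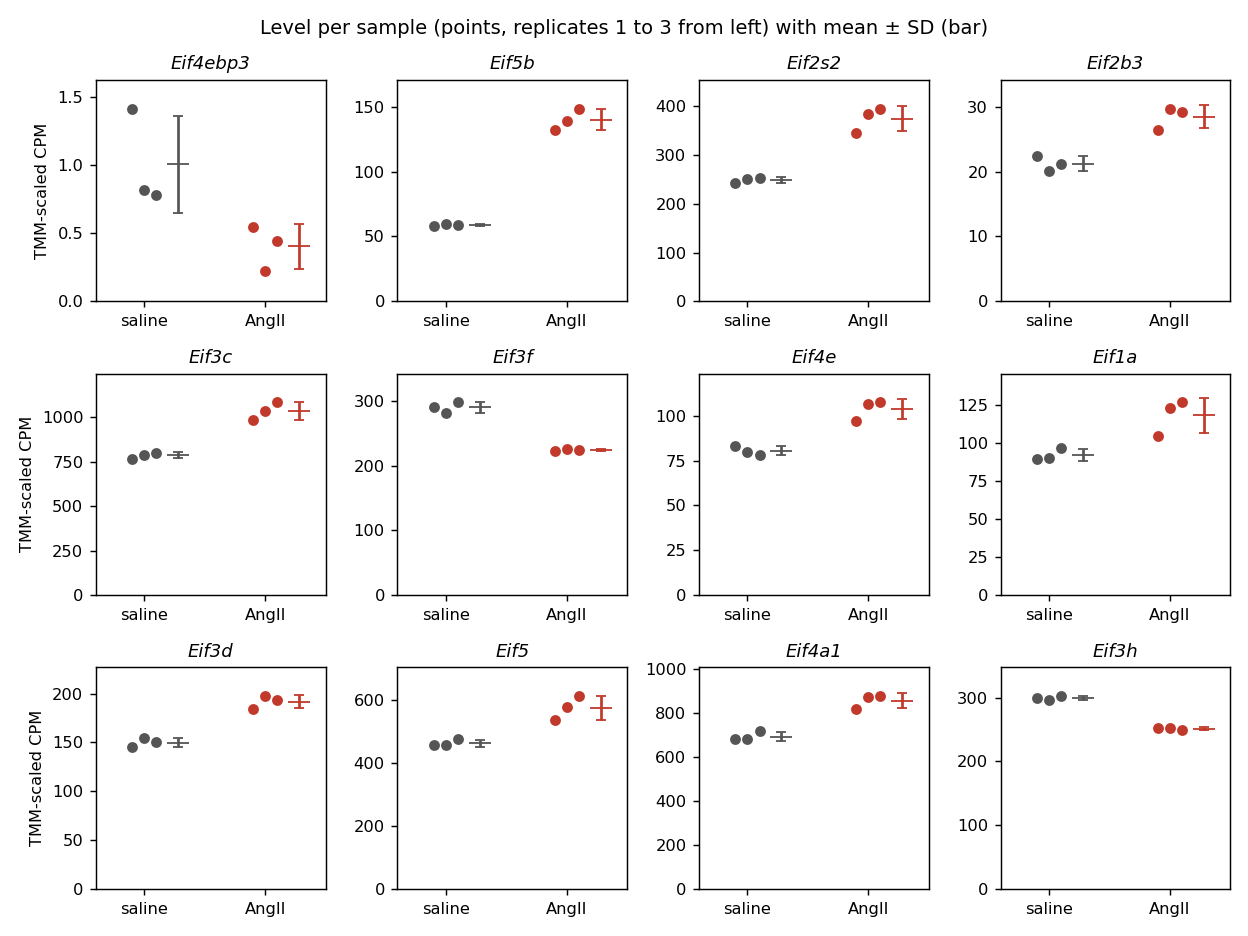
TMM-scaled CPM (vertical axis from 0) of the 12 genes with the largest absolute log2 fold change among those that passed, with a point for each of the 3 samples a group and the mean ± SD beside them. The groups are apart in each of the 12, and the first AngII sample is the lowest of its group in the rising genes shown.

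AngII replicate 1 lay nearest to the saline samples in 22 of the 26 genes that rose, replicate 2 in 1 and replicate 3 in 3. Over all genes that rose in the table it was nearest in 49.8%. Among the 13 that fell it was nearest in 4, replicate 2 in 5 and replicate 3 in 4, where replicate 1 was nearest in 43.2% of all genes that fell. Without that sample 26 initiation genes were still called higher and 12 lower. Each of the 9 endothelial markers listed below was higher in AngII replicate 1 than in the other AngII samples, whether it rose or fell with AngII. Among those that rose were Cdh5 (1450, 1394 and 1306 CPM in AngII replicates 1 to 3) and Kdr (239, 221 and 205 CPM). Among those that fell were Erg (619, 618 and 593 CPM) and Emcn (323, 315 and 311 CPM). The part of this difference between samples in the results was not tested.

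Levels between genes were compared as CPM per kb of exon. The length was that of all annotated exons of a gene joined, not of the transcripts expressed, so these levels and their ratios depend on the annotation. With saline they ran from 391 ± 12.1 for Eif4a1 through 262 ± 6.89 for Eif1 to 3.69 ± 0.261 for Eif4g3, 1.35 ± 0.477 for Eif4ebp3 and 0.155 ± 0.0422 for Eif4e3 (mean ± SD, n = 3). Eif4h (232 ± 1.87), Eif3c (232 ± 4.91) and Eif3h (231 ± 2.19) came next after Eif1, and neighbours among these 3 overlapped in their saline samples. With AngII Eif4a1 (484 ± 18.4) and Eif1 (310 ± 20.6) kept the leading places by their means, but Eif3c, at 305 ± 15.1, lay within the spread of Eif1. Eif4h and Eif3h had come down to 198 ± 2.59 and 194 ± 1.64. Eif5b moved from place 47 of 53 to place 42, at 7.57 ± 0.115 and 18.0 ± 1.03 CPM per kb, and Eif2s2 from place 18 to place 10. Cap-binding Eif4e, at 15.7 ± 0.493 and 20.3 ± 1.13 CPM per kb, was low beside its partners Eif4a1 and Eif4g1 (95.6 ± 2.12 and 105 ± 0.527). All 68 genes together took 1.23%, 1.23% and 1.25% of the counts in the saline samples and 1.30%, 1.33% and 1.36% in the AngII samples.

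**Figure D4:**
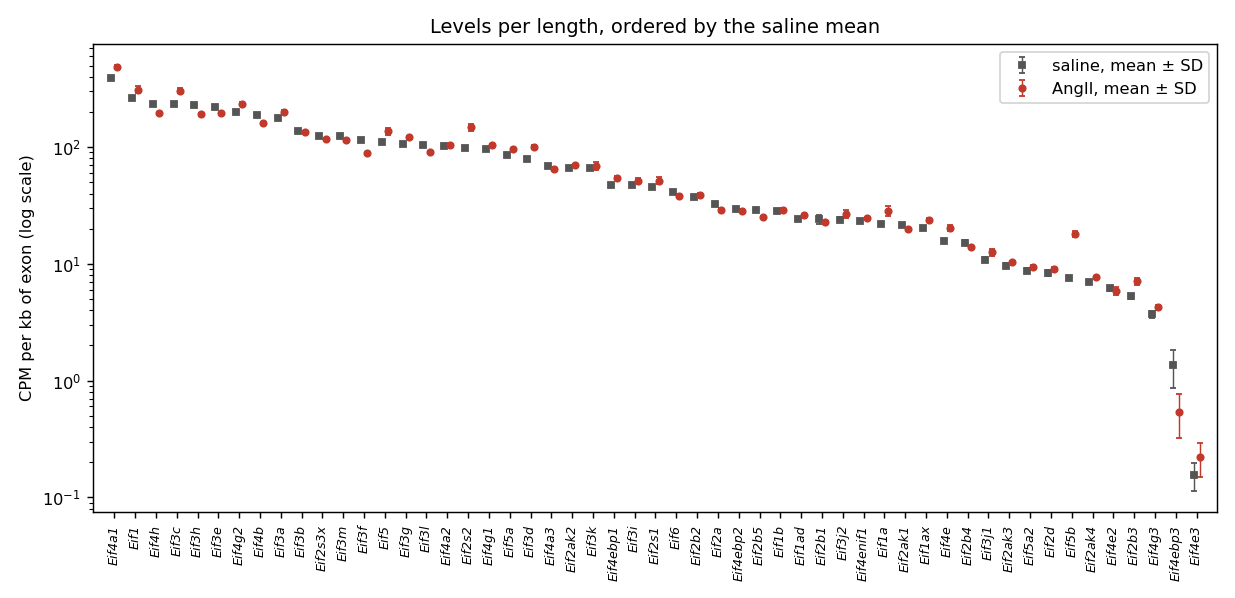
Mean level in CPM per kb of exon (vertical log axis, bars are SD over 3 samples) of the 53 tested initiation genes, ordered by the saline mean, with squares for saline and circles for AngII. Levels fall from Eif4a1 (391 with saline) to Eif4e3 (0.155), and Eif5b stands out from its neighbours with AngII (18.0).

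The other genes of the pathway were taken from 4 lists. Of the genes that reverse or regulate eIF2 phosphorylation or act directly after it, 7 of 15 tested rose and 3 fell, with a median log2 fold change of 0.10, where 29.0% of all tested genes rose and 28.6% fell, the shares to set beside each of the 4 lists. Ppp1r15a, the stress-induced subunit of the eIF2 phosphatase (GADD34), had 50.8, 54.4 and 56.6 CPM with saline and 114, 128 and 133 CPM with AngII, and was 2.31-fold higher (log2 fold change 1.21 ± 0.0526; edgeR adjusted p = 1.23e-12). Its constitutive counterpart Ppp1r15b rose by 0.24, Atf4 by 0.73 and the transcription factor gene Ddit3 by 0.98, all without overlap. Impact (-0.20), whose product restrains GCN2, Gcn1 (-0.16), whose product activates it, and Prkra (-0.21), an activator of PKR, fell. The genes of the catalytic phosphatase subunits, Ppp1ca, Ppp1cb and Ppp1cc, did not pass.

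Of 17 accessory initiation factors 10 rose and 4 fell (median 0.13). Mcts1, which works with DENR on tRNA release and reinitiation, had 13.4, 11.6 and 13.0 CPM with saline and 21.9, 21.4 and 24.1 CPM with AngII, a 1.78-fold difference without overlap (edgeR adjusted p = 1.57e-08), though reads shared with its near-identical copy Mcts2 may have been divided. The helicase Dhx29, which helps scanning through structured leaders, was 1.44-fold higher, and Abce1, the recycling ATPase, and Pabpc4, a poly(A)-binding protein gene, were 1.22-fold and 1.23-fold higher. Mknk2, a kinase of eIF4E, fell by 0.38, Paip2b and Gigyf1, which encode repressors of translation, by 0.24 each, and Pabpc1, the main poly(A)-binding protein gene, by 0.20. In the list of elongation and release factors, which also holds related genes that are not such factors, 5 of 12 tested rose and 2 fell (median 0.03). The count that fell was 4 without saline replicate 1, without AngII replicate 3 or without the count filter. The release factor genes Gspt1 (0.25) and Etf1 (0.22), Eef1e1 (0.40) and Dhps (0.43), the enzyme that begins the making of hypusine on eIF5A, rose, while Eef2 (-0.19), the translocase, and Gspt2 (-0.27) fell. In the list of mTORC1 signalling 3 of 13 rose and 4 fell (median -0.02). The balance turned with GC content and length trends removed, when 6 rose and 1 fell, and 2 fell in DESeq2 or without saline replicate 2. Rheb (0.24), the activator of mTORC1, Akt1s1 (0.17) and the kinase gene Rps6kb1 (0.16) rose, and Mlst8 (-0.25), Tsc2 (-0.13), Ddit4 (-0.12) and Tsc1 (-0.11) fell. For Ddit4 the direction turned once trends on GC content and length were removed (0.02, adjusted p = 0.694), and the call was lost without saline replicate 3 (0.0674). The Akt1s1 call was lost without saline replicate 1 (adjusted p = 0.0864), saline replicate 2 (0.0666) or AngII replicate 3 (0.0848). The Tsc2 call was lost with those trends removed (0.352) and without saline replicate 1 (0.0539), saline replicate 2 (0.0533) or AngII replicate 2 (0.0742). The Tsc1 call was lost with them removed (0.0676), without the count filter (0.0548), and without saline replicate 1 (0.0689), saline replicate 2 (0.0731) or AngII replicate 3 (0.116). DESeq2 did not call Akt1s1 (0.054), Ddit4 (0.057) or Tsc1 (0.121).

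Total counts were 21154732 to 23004785 for saline and 22646070 to 25142005 for AngII samples. The 9 endothelial markers summed to 5535 to 5600 CPM with saline and 5435 to 5944 CPM with AngII. None was under 1 CPM throughout. Within that sum Cdh5 (0.21), Kdr (0.28) and Tek (0.16) rose on the log2 scale. Emcn (-0.31), Erg (-0.15), Vwf (-0.40) and Tie1 (-0.08) fell, and Pecam1 and Egfl7 did not pass. Of the smooth muscle markers 4 of 6 were under 1 CPM in every sample, Acta2 and Tagln among them. The list's sum of 88.3 to 89.6 CPM with saline and 108 to 112 CPM with AngII was almost all Smtn. Myh11, a scarce marker, fell from 0.958 ± 0.357 CPM with saline to 0.183 ± 0.0661 CPM with AngII (log2 fold change -2.35, edgeR adjusted p = 1.03e-04). Of the fibroblast markers 4 of 6 were under 1 CPM throughout, with sums of 6.62 to 7.95 CPM with saline and 13.13 to 14.99 CPM with AngII, where Col3a1 and Pdgfra were higher. Leukocyte markers summed to 271 to 275 CPM with saline and 264 to 280 CPM with AngII, nearly all from Cd68, with Ptprc, Adgre1 and Csf1r at or near 0. Epithelial or mesothelial markers summed to 3.39 to 3.47 CPM with saline and 1.56 to 1.93 CPM with AngII. The part of the endothelial, smooth muscle, fibroblast and mesothelial differences in the results above was not tested.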

How the data were processed

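Poly(A) RNA of 6 samples was sequenced from stranded dUTP libraries, per the labels' protocols. The authors deposited 1 table of estimated counts (expected counts) for 17067 genes by symbol, not scaled to library size, in which 87.4% of the values were whole numbers to within 1e-9. HISAT2 and mm10 are named in the submitters' processing notes, but for the quantifier, annotation and strand setting nothing is given in the sources used here. Genes that overlap on opposite strands or share reads with close relatives are therefore uncertain, and 14 tested initiation genes share exon bases with a gene on the other strand. After rounding to integers, they were tested in edgeR 4.0.16 (R 4.3.3), scaled by TMM, with the default filterByExpr (minimum count 10, minimum total 15) and the quasi-likelihood F-test over 12277 genes, with Benjamini-Hochberg adjustment over all of them. The SE is the log2 fold change over the square root of F. CPM are TMM-scaled, and errors are SD with n = 3. Genes near 1 CPM rest on few counts. Exon lengths, coordinates and overlaps came from the basic set of GENCODE M21 (GRCm38), which held all 53 tested initiation genes. Promoters came from RefSeq (GRCm38.p6).

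Alternatives were other scalings and filters, DESeq2 1.42.0, limma-voom (limma 3.58.1), the replicate number as a block, removal of GC content and length trends, a test against a fold change of 1.2 and each sample left out. The fit was tested on simulated data. All members by the symbol rule may be named. Values in every sample are given for the eIF2 kinases and eIF2 subunits, for eIF2B subunits and eIF4E-binding repressors that passed and for the 12 largest changes. Up to 4 genes that rose and 4 that fell are named from each pathway list, by smallest p, with Atf4 and Ppp1r15a in any case. Values in every sample of Eif4b, Eif4h, Mcts1, Ppp1r15a, Cdh5, Kdr, Erg and Emcn were added after their values were seen. So was the mention of Ppp1ca, Ppp1cb and Ppp1cc. Of the ratios and shares per kb of exon, only that of the binding proteins to Eif4e was planned. The members, lists and tests were chosen with earlier results of these data known.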

Additional observations from a re-analysis of the deposited data

How the results depend on the processing

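The count of initiation genes called higher was 22 to 26 with each sample left out and 23 to 28 under the 8 other settings that test for any change, and the count called lower was 11 to 14 and 12 to 15. Of the 26 called higher, 21 kept the call and direction in every one of these 14 settings that tested them, and so did 10 of the 13 called lower. Against a fold change of 1.2 the counts fell to 6 and 2, and those of the 4 pathway lists together from 25 higher and 13 lower to 6 and 1, since that test asks for a larger change. The median log2 fold change of 0.10 was 0.09 to 0.13 with each sample left out (0.0878 to 0.1327), 0.0873 with library totals alone, 0.0445 without the count filter, which brings in the scarce genes, and 0.1154 with GC content and length trends removed. Among the initiation genes and the pathway genes named as rising or falling, removing those trends also turned the sign of 5 small values. These were Eif3b (0.0633), Eif4a2 (-0.0451), Eif4ebp2 (0.005), Eif6 (0.0032) and Ddit4 (0.016). Among the same genes the calls for Eif6, Eif3j2 (edgeR adjusted p = 0.168), Ddit4, Tsc1 and Tsc2 ended. Calls came up for the initiation genes Eif2b2, Eif3k and Eif1b. The 4 pathway lists together then had 28 genes higher and 10 lower, and the cause was not tested. The difference of the ratio of binding proteins to Eif4e (AngII minus saline) was -0.82, with -0.955 to -0.712 on leaving out a sample and -0.638 without division by length. With the replicate block 27 initiation genes were higher, Eif5a2 being the added one, and 13 lower. Same-numbered samples did not deviate together (correlations of 0.0833, 0.0524 and 0.0077), and not every sample correlated best with its own number, so the numbers were not taken as pairs.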
